A study of Mus musculus with 12 samples.

Results

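The genes examined here encode proteins of the muscle Z-disc, and the members were Actn2, Actn3, Flnc, Ldb3, Pdlim3, Myoz1, Myot, Tcap, Csrp3 and Des, 10 of the 22028 protein-coding genes of the annotation (GENCODE M21). Every listed AGO2 peak that overlapped one of these genes on its own strand by at least 1 nt was taken, with no threshold. In library set 1 these were 271 of 92451 listed peaks in wild-type muscle and 322 of 119859 in muscle without mir-486. In set 2 they were 510 of 244814 and 504 of 256219. The members therefore held between 0.197% and 0.293% of the peaks of a library.

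Chimeric eCLIP cross-links the microRNA-binding protein AGO2 to RNA, immunoprecipitates it and sequences the bound fragments. A peak well above its input is read as RNA held by AGO2. The lists also hold peaks below input, so a listed peak alone does not show binding. The method was applied to tibialis anterior muscle, a fast limb muscle, of 6-month-old wild-type mice (WT) and of mice that lack the mir-486 locus. The latter are called mir-486 KO here and miR-486-/- in the labels. In the labels the WT strain is C57BL/6 and that of mir-486 KO is FVB N/J, whereas the study's methods describe male mice with a CRISPR deletion that were kept at first on FVB/NJ and then crossed back onto C57BL/6J. Labels and methods were not reconciled here, so strain and genotype cannot be told apart. The labels describe 1 total immunoprecipitated library per genotype in each of 2 sets, each with its own size-matched input, and do not say whether the sets come from different mice. The methods count more muscle samples per genotype than there are libraries here and speak of duplicates, so the spread between the sets may be technical. Libraries further enriched for miR-486 are not analysed here.

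The Z-disc is the border between neighbouring sarcomeres, where actin filaments of opposite polarity are anchored. Alpha-actinins cross-link those filaments, and PDZ-LIM proteins, myozenins, myotilin and telethonin bind to the alpha-actinin lattice or to titin, while filamin C and desmin tie the Z-disc to the membrane and to neighbouring myofibrils. MicroRNAs guide AGO2 to short complementary stretches of messenger RNA, most often through bases 2 to 8 of the microRNA, called the seed, and such binding is best known for 3′ UTRs.

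The libraries were checked before the members were described. At the Mir486 gene (chr8:23142555-23142682) the WT library had 2 listed peaks in set 1 and 4 in set 2, and the mir-486 KO libraries had 0 and 0. All 8 fast-fibre marker genes had listed peaks in every library. Slow and cardiac fibre markers had 105 and 90 listed peaks in the WT and mir-486 KO libraries of set 1, against 16 and 26 in the longer lists of set 2. Myh7, the slow myosin heavy chain, had 53, 51, 1 and 0 listed peaks in WT set 1, mir-486 KO set 1, WT set 2 and mir-486 KO set 2. The sets thus differed in fibre-type markers, and the part of this difference in the members' values was not tested.

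The WT library of set 1 stood apart from the other 3. For each listed peak the lists give a log2 fold of its scaled reads in the immunoprecipitate over the input. The median log2 fold over input of a member's peaks was highest in this library for 9 of the 9 members with peaks in all 4 libraries. Results that rest on it are therefore given with and without it. Reads or read counts are not in the lists, so absolute depth is unknown. No test across genotypes was made, since an exact permutation test (two-sided) of 2 libraries against 2 cannot go below p = 0.333.

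Over input, the WT library of set 1 had a median log2 fold of 1.10 over the members' peaks, beside 0.68 over all its listed peaks. The other 3 libraries had medians of −0.22 (mir-486 KO, set 1), −0.11 (WT, set 2) and −0.10 (mir-486 KO, set 2), beside 0.38, 0.47 and 0.45 over all listed peaks. The members thus lay above the typical peak in one library and below it in the other 3. A peak is called enriched here when its log2 fold over input was at least 3 and its −log10 p, given by the authors for enrichment only, was at least 3. In WT set 1, 18 of the 271 member peaks were enriched, or 6.64%, where 3.57% of all listed peaks were. In mir-486 KO set 1 it was 4 of 322, or 1.24%, against 0.848%. In set 2 it was 7 of 510 (1.37%) in WT, against 1.42%, and 6 of 504 (1.19%) in mir-486 KO, against 1.23%. In set 2 the members' share was close to that of all peaks in both genotypes.

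At a log2 fold of at least 1 with the same −log10 p, the members' share was above that of all peaks in every library. In WT set 1, 105 member peaks passed, or 38.7%, where 7.14% of all peaks did. In mir-486 KO set 1 it was 24, or 7.45%, where 1.99% did. In set 2, 57 WT peaks (11.2%) and 64 mir-486 KO peaks (12.7%) passed, where 5.37% and 4.72% of all peaks did. With no demand on the p-value, 55.0% of member peaks in WT set 1 reached a log2 fold of 1, against 37.0% of all peaks. The same shares were 15.2% against 21.2% in mir-486 KO set 1, 13.7% against 35.7% in WT set 2 and 15.7% against 27.8% in mir-486 KO set 2. In those 3 libraries the order of members and all peaks thus turned with the demand on the p-value.

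**Figure D1:**
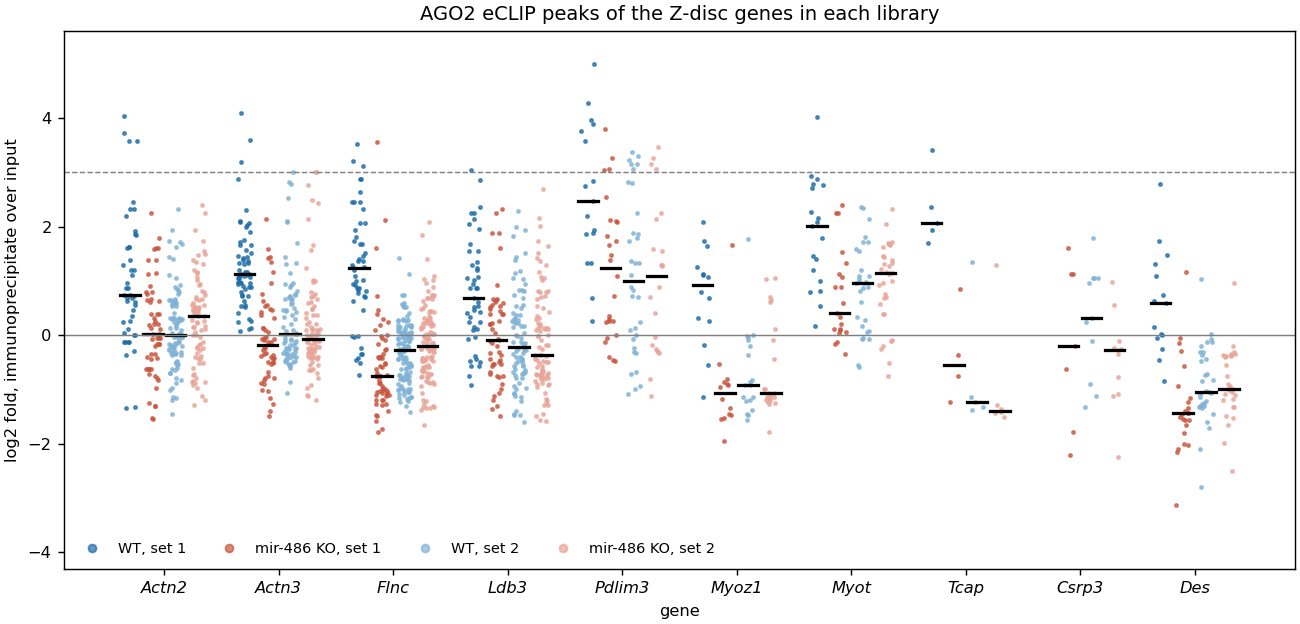
Log2 fold of immunoprecipitate over input (y axis) of every listed peak of the 10 Z-disc genes (x axis) in the 4 libraries. Each point is 1 peak, black bars are medians, and the dashed line marks a log2 fold of 3. The WT library of set 1 lies above the others in each gene with peaks there, and Csrp3 has 0 peaks in it.

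The enriched peaks merged into 15 sites, of which 10 lay in coding sequence (CDS), 4 in introns, 1 in a 5′ UTR and none in a 3′ UTR. Pdlim3 held 5 of them, Flnc 3, Actn2 and Actn3 2 each, and Ldb3, Myot and Tcap 1 each. Myoz1, Csrp3 and Des held none. Among all listed peaks, those enriched in CDS, 3′ UTRs and introns numbered 1518, 1052 and 271 of 3297 in WT set 1. In mir-486 KO set 1 they numbered 112, 360 and 261 of 1016. In set 2 it was 1019, 1057 and 922 of 3479 in WT, and 964, 1036 and 694 of 3148 in mir-486 KO. The members had 18 and 34 listed 3′ UTR peaks in set 1 (WT, mir-486 KO), and 38 and 38 in set 2. Of the 15, 11 were enriched in 1 library only, and 12 sites had a listed peak in all 4 libraries. No site was enriched in all 4. Merged anew without the WT library of set 1, the enriched peaks gave 7 sites, and without any other single library 13 to 15. A site can split when merged anew, so the 7 need not be 7 of the 15. Of the 12 sites listed in all 4 libraries, 6 had a log2 fold of at least 1 in each.

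Pdlim3 and Actn3 held the 3 sites that were enriched in 3 of the 4 libraries. In each, the library below the threshold was mir-486 KO set 1. The sequences are shown because the strongest stretch of both transcripts holds the same 7 bases. These bases, ACATTCC, are complementary to the seed of miR-206-3p, a microRNA known as specific to skeletal muscle. Its relative miR-1a-3p, abundant in heart and skeletal muscle, is known to have the same seed, so the word does not tell them apart, and it is called the miR-206-3p word only after the sequence printed. The microRNA is printed with its seed in capitals. The genomic stretches are read 5′ to 3′ on the gene's strand from GRCm38, with any complementary word in capitals. All 3 sites run past an end of their exon, so some of the outermost bases printed are intronic.
miR-206-3p: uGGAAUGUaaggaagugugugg
Pdlim3 exon 5 site, chr8:45913695-45913887, plus strand: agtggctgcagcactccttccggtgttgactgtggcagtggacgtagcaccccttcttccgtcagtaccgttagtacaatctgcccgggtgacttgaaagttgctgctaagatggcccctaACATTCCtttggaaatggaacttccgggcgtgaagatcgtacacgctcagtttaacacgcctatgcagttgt
Pdlim3 exon 4 site, chr8:45909010-45909087, plus strand: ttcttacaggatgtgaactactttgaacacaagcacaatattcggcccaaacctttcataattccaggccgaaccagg
Actn3 exon 7 site, chr19:4870908-4870999, minus strand: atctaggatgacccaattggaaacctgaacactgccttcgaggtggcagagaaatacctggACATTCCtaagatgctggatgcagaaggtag

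Pdlim3, the actin-associated LIM protein that binds alpha-actinin (chr8:45885461-45919548, plus strand), held the highest listed peak of all members in every library, and its median was the highest of the members in 3 of the 4. This median, a log2 fold over input, was 2.47 over 17 peaks in WT set 1, 1.23 over 26 in mir-486 KO set 1, 1.0 over 34 in WT set 2 and 1.09 over 22 in mir-486 KO set 2. Among the genes with at least 10 listed peaks, these medians stood at percentiles 98.8, 96.7, 78.3 and 92.2. The highest listed peak at the exon 5 site reached 4.99 in WT set 1, 2.11 in mir-486 KO set 1, 3.23 in WT set 2 and 3.27 in mir-486 KO set 2. Its −log10 p was 65.0, 10.3, 82.8 and 400, the last being the highest value written in the lists. At the exon 4 site the values were 3.76, 2.54, 3.38 and 3.47 in the same order. In set 2 the genotypes differed little at both sites, and in set 1 WT was the higher.

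In the mature Pdlim3 transcript of 1479 nt the exon 4 site ended at nt 458 and the exon 5 site began at nt 459, so both form 1 stretch across the exon junction, from nt 391 to nt 649. The miR-206-3p word lay at nt 578 to 584. It was inside a listed peak of log2 fold 4.99 in WT set 1, whereas the most enriched peaks of set 2 in exon 5 ended at chr8:45913808 and chr8:45913814, just upstream of the word at chr8:45913816-45913822. Of the Pdlim3 exonic peaks, those within 150 nt of the word had median log2 folds of 3.89 in WT set 1 (5 peaks), 1.88 in mir-486 KO set 1 (6 peaks), 3.15 in WT set 2 (9 peaks) and 3.11 in mir-486 KO set 2 (6 peaks). The exonic peaks outside this window had medians of 2.20, 0.25, 0.12 and 0.41. The same order held in all 4 libraries. Word and window were both chosen after the values were seen, at the strongest stretch, so this order follows from the choice. In mir-486 KO set 1 the highest listed peak at the word itself had 1.48. The highest exonic peak outside the window had 1.84 there. In set 2 the listed peaks that held the whole word had 2.25 in WT and 2.25 in mir-486 KO, below the threshold of 3. Outside WT set 1 the highest exonic peak of Pdlim3 lay in exon 4, whose site does not hold the word.

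Actn3, the alpha-actinin of fast fibres (chr19:4861216-4877909, minus strand), is one of the target genes the study named from libraries of this series, so its listing there and its values here are not independent. At the exon 7 site its highest log2 fold over input was 4.09 in WT set 1, 2.13 in mir-486 KO set 1, 3.01 in WT set 2 and 3.01 in mir-486 KO set 2. The neighbouring exon 8 site (chr19:4869413-4869443) had 3.60, 1.58, 2.08 and 2.44, and was enriched in WT set 1 alone. On the mature transcript of 2887 nt these sites lay side by side at nt 689 to 770 and nt 771 to 801, with the word at nt 744 to 750. Within 150 nt of the word the median log2 fold was 1.94 (12 peaks), 0.56 (9 peaks), 1.43 (13 peaks) and 1.13 (16 peaks) in the order above. Over the rest of the transcript it was 1.05, −0.33, −0.15 and −0.19. As in Pdlim3, the highest exonic peak lay within this window in each library, a window placed where the values were already known to be high.

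**Figure D2:**
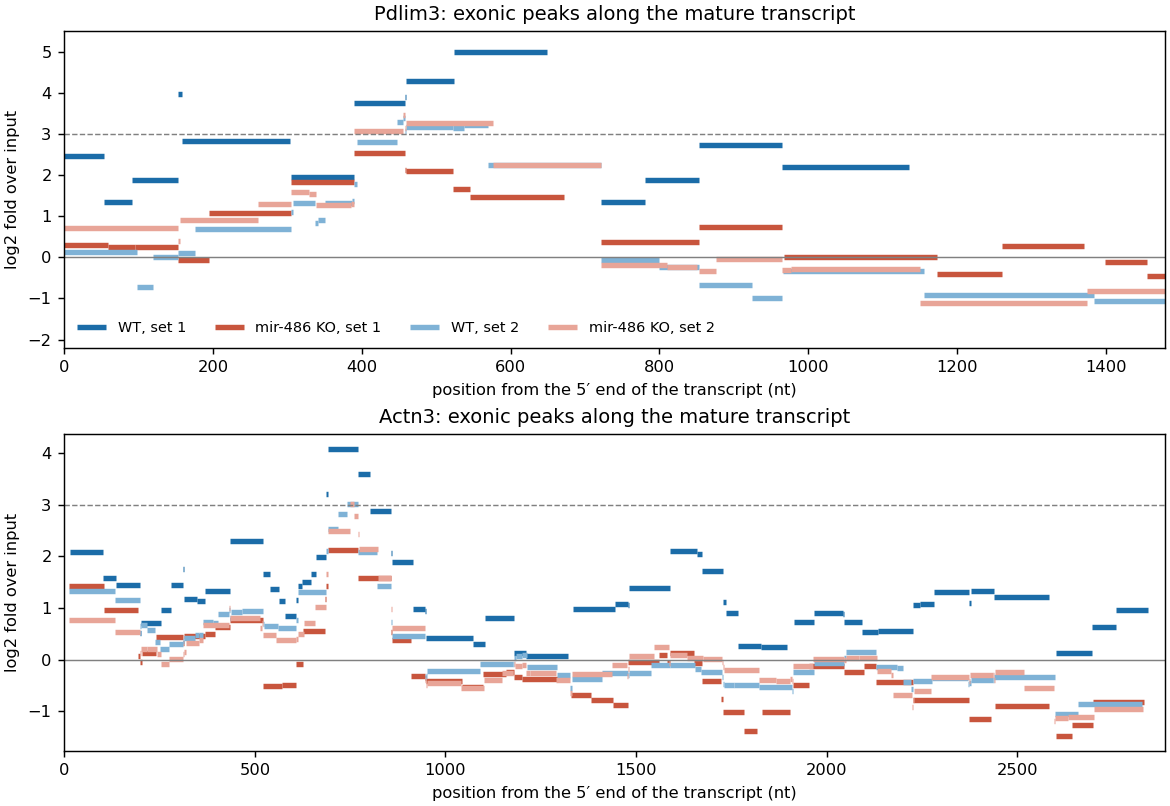
Log2 fold over input (y axis) of the exonic peaks of Pdlim3 and Actn3 along the mature transcript in nt from its 5′ end (x axis). Each bar is 1 listed peak, coloured by library, and the dashed line marks a log2 fold of 3. In Pdlim3 the highest bars lie between nt 391 and nt 649, and in Actn3 between nt 689 and nt 801, in all 4 libraries.

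The same word lay in 2 intronic sites, which are shown with the flanking bases for comparison.
Pdlim3 intron 4, chr8:45912573-45912602, plus strand: actctcttaatACATTCCagtttctcataa
Actn2 intron 1, chr13:12336190-12336219, minus strand: tatatacatacACATTCCcccatgcatgtg
The Pdlim3 intron 4 site (chr8:45912494-45912751) was enriched in both libraries of set 1, with log2 folds of 3.57 in WT and 3.80 in mir-486 KO, and reached 2.80 and 2.13 in set 2. The Actn2 intron 1 site (chr13:12336164-12336315) was enriched in WT set 1 with 3.57 and had no listed peak in mir-486 KO set 1. It reached 0.56 and 1.48 in WT and mir-486 KO of set 2. Not every copy of the word had a peak. The word in a noncoding exon of Actn2 (chr13:12308223-12308229) had no listed peak in any library.

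Of the enriched member peaks, 4 of 18 in WT set 1, 2 of 4 in mir-486 KO set 1, 2 of 7 in WT set 2 and 2 of 6 in mir-486 KO set 2 held the miR-206-3p word within 25 nt. Among all enriched peaks of these libraries the share was 11.9%, 12.8%, 15.9% and 13.9%. Over all listed member peaks, enriched or not, the word was in 3.32%, 2.17%, 1.57% and 1.79%, beside 4.81%, 3.08%, 3.32% and 3.00% of all listed peaks. Neighbouring peaks share a site, so these counts rest on 4 places in the enriched peaks. None of the 3′ UTR peaks of the members held the word in any library, where 4.41%, 2.92%, 3.34% and 3.32% of all 3′ UTR peaks did. The members had only 18, 34, 38 and 38 such peaks, too few to set them apart from these shares. A match is a description of the letters only. The table of microRNA sequences used here has no entry for miR-486a-5p, miR-1a-3p or miR-133a-3p.

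The words of 4 further microRNAs were searched, CTACCTC for let-7a-5p, TGGTGCT for miR-29a-3p, TGTTTAC for miR-30a-5p and TACTTGA for miR-26a-5p. In CDS and UTR exons, CTACCTC occurred in Flnc exon 46 and in the Ldb3 3′ UTR, and TGGTGCT in Flnc exon 42. At the Flnc exon 42 word the highest listed peak had 2.65 in WT set 1 and −0.74 in mir-486 KO set 1. In set 2 it had −0.11 in WT and 0.81 in mir-486 KO. Of the enriched member peaks, 1 of 18 in WT set 1 held CTACCTC, and no other held any of these 4 words. Over all enriched peaks the shares with each of these words ran from 1.97% to 6.04% across the libraries. Flnc encodes filamin C, a large actin cross-linker (chr6:29433256-29461883, plus strand).
let-7a-5p: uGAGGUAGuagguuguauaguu
Flnc exon 46, chr6:29459505-29459534, plus strand: gctcctggtaaCTACCTCattgctatcaag
The Flnc exon 46 site (chr6:29459390-29459573) had log2 folds of 3.20 in WT set 1, 0.46 in mir-486 KO set 1, 1.42 in WT set 2 and 1.84 in mir-486 KO set 2. In set 2 this was the Flnc peak with the highest −log10 p in both genotypes, 12.3 in WT and 16.0 in mir-486 KO. At the Ldb3 3′ UTR word the highest listed peak had 0.15, −1.13, −0.26 and −0.72 in the same order, so a let-7a-5p word alone did not go with a high value.

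Apart from these sites the actin cross-linkers had medians near or below input in 3 of the libraries. Flnc had medians of 1.23 over 50 peaks in WT set 1, −0.74 over 62 in mir-486 KO set 1, −0.28 over 123 in WT set 2 and −0.20 over 116 in mir-486 KO set 2. Actn2, the alpha-actinin of all striated fibres (chr13:12269426-12340760, minus strand), had 0.75 over 46 peaks, 0.02 over 57, 0.01 over 94 and 0.36 over 83. In set 2 its peak of highest −log10 p lay in exon 14 in both genotypes. It had 0.93 (−log10 p 11.4) in WT and 1.38 (−log10 p 21.5) in mir-486 KO. Actn3 had 1.12 over 60 peaks, −0.18 over 54, 0.03 over 78 and −0.06 over 89. Further sites of WT set 1, in Actn2 and Flnc, were not high elsewhere. At Actn2 exon 16 (chr13:12277397-12277537) WT set 1 reached 4.04, against −0.05, 0.62 and 0.94 in mir-486 KO set 1, WT set 2 and mir-486 KO set 2. At Flnc exon 22 (chr6:29448556-29448710) it reached 3.52, against −0.16, 0.03 and 0.32. Flnc also had a 26-nt intronic peak (chr6:29453064-29453089) of 3.55 in mir-486 KO set 1.

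Ldb3, also called ZASP or cypher, is a PDZ-LIM protein that binds alpha-actinin (chr14:34526603-34588682, minus strand). Its medians over input were 0.68 over 45 peaks in WT set 1, −0.09 over 53 in mir-486 KO set 1, −0.21 over 83 in WT set 2 and −0.36 over 89 in mir-486 KO set 2. In WT set 2 its peak of highest −log10 p, 20.6, lay in intron 2 and had 1.94. Its 1 enriched site, in exon 12 (chr14:34541869-34541995), had 3.05, 0.66, 1.44 and 1.64. The sites of Ldb3 exon 12 and Flnc exon 46 were thus enriched in WT set 1 alone and above a log2 fold of 1 in both libraries of set 2.

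Myot encodes myotilin, which binds alpha-actinin and filamin C (chr18:44334074-44355724, plus strand). It had high values over input, with medians of 2.02 over 19 peaks in WT set 1, 0.40 over 21 in mir-486 KO set 1, 0.97 over 30 in WT set 2 and 1.15 over 34 in mir-486 KO set 2. These stood at percentiles 96.9, 74.1, 77.3 and 93.4 among genes with at least 10 listed peaks. Its site in exon 2 (chr18:44336816-44337000), in the 5′ UTR, had 4.02, 2.25, 2.36 and 2.32, so that WT set 1 was higher and the other 3 libraries lay close together.

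Tcap encodes telethonin, which caps titin at the Z-disc (chr11:98383811-98384953, plus strand), and had few listed peaks. In WT set 1 its 5 peaks lay between 1.69 and 3.42. In mir-486 KO set 1 its 4 peaks lay between −1.24 and 0.85, in WT set 2 its 5 peaks between −1.37 and 1.34, and in mir-486 KO set 2 its 6 peaks between −1.50 and 1.30. In every library the highest was the peak at the 5′ end, at chr11:98383822-98383927 in WT set 1. In set 2 every other Tcap peak lay in the 3′ UTR and below input.

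Des encodes desmin, the intermediate filament protein of muscle (chr1:75360329-75368579, plus strand). Its medians were 0.60 over 15 peaks in WT set 1, −1.44 over 24 in mir-486 KO set 1, −1.04 over 33 in WT set 2 and −0.98 over 31 in mir-486 KO set 2. In the last 3 libraries these stood at percentiles 0.411, 0.838 and 1.34, among the lowest of the genes with at least 10 listed peaks. Its first peak, in the 5′ UTR and at the start of the gene, was nevertheless the highest in all 4, with 2.78, 1.16, 1.04 and 0.97. Myoz1, a myozenin that binds calcineurin and alpha-actinin (chr14:20649107-20656540, minus strand), was similar in set 2 and in mir-486 KO set 1. Its medians were 0.93 over 14 peaks, −1.06 over 14, −0.92 over 19 and −1.06 over 23. In intron 3 of its main transcript, where another transcript has an exon, the highest listed peaks near the word at chr14:20653477-20653483 had 1.07, 1.66, 1.78 and 1.03.
Myoz1, chr14:20653466-20653495, minus strand: gctacatatattACATTCCcaaccagtcta

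Csrp3, the muscle LIM protein of slow and cardiac fibres (chr7:48830398-48848033, minus strand), had 0 listed peaks in WT set 1 and 7, 11 and 11 in the other libraries. Their medians were −0.20, 0.32 and −0.28, and their −log10 p did not exceed 0.657. No Csrp3 peak thus passed the −log10 p threshold in any library.

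**Figure D3:**
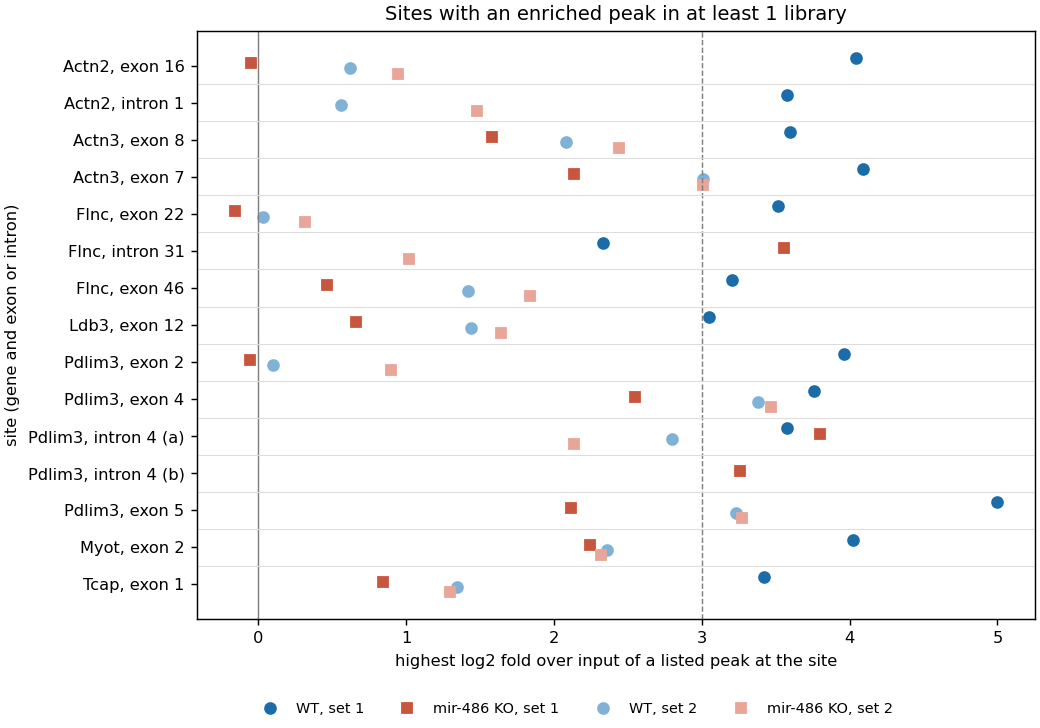
Highest log2 fold over input (x axis) of a listed peak at each of the 15 sites with an enriched peak in at least 1 library (y axis), circles for WT and squares for mir-486 KO. A missing symbol means that no peak was listed there, and the dashed line marks a log2 fold of 3. Exon 7 of Actn3 and exons 4 and 5 of Pdlim3 reach the line in 3 libraries.

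The high first peaks of Des and Tcap were followed up over all members, a comparison chosen after they were seen. Among members with at least 4 listed peaks, the peak nearest the 5′ end lay above the gene's median in 6 of 9 in WT set 1, 7 of 10 in mir-486 KO set 1, 8 of 10 in WT set 2 and 7 of 10 in mir-486 KO set 2. Over all protein-coding genes with at least 4 listed peaks this held for 36.7%, 29.9%, 34.8% and 34.1%. The median difference between that peak and the gene's median was 0.97, 0.62, 0.74 and 0.57 on the log2 scale for the members, and 0, 0, −0.19 and −0.17 for all genes. In Des it was between 1.96 and 2.61, in Tcap between 1.36 and 2.69, and in Actn3 between 0.82 and 1.61. In Flnc it was negative in all 4 libraries, from −1.03 to −0.23, so the members were not uniform.

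The members' peaks lay mostly in coding sequence, which was read at the midpoint of a peak. The CDS share was 78.2% (95% Wilson interval 72.9 to 82.7) in WT set 1, 68.6% (63.4 to 73.5) in mir-486 KO set 1, 74.3% (70.4 to 77.9) in WT set 2 and 74.4% (70.4 to 78.0) in mir-486 KO set 2. Over all listed peaks it was 51.8%, 35.5%, 40.2% and 39.7%. The 3′ UTR share was 6.64% (4.24 to 10.3), 10.6% (7.65 to 14.4), 7.45% (5.48 to 10.1) and 7.54% (5.54 to 10.2), beside 19.3%, 18.3%, 12.2% and 11.4% of all peaks. The intervals cover counting error only and treat neighbouring peaks as independent, which they are not. The gene models differ in what they offer. Flnc has 8178 nt of CDS and 677 nt of 3′ UTR, and only Ldb3 and Des have more 3′ UTR than CDS.

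**Figure D4:**
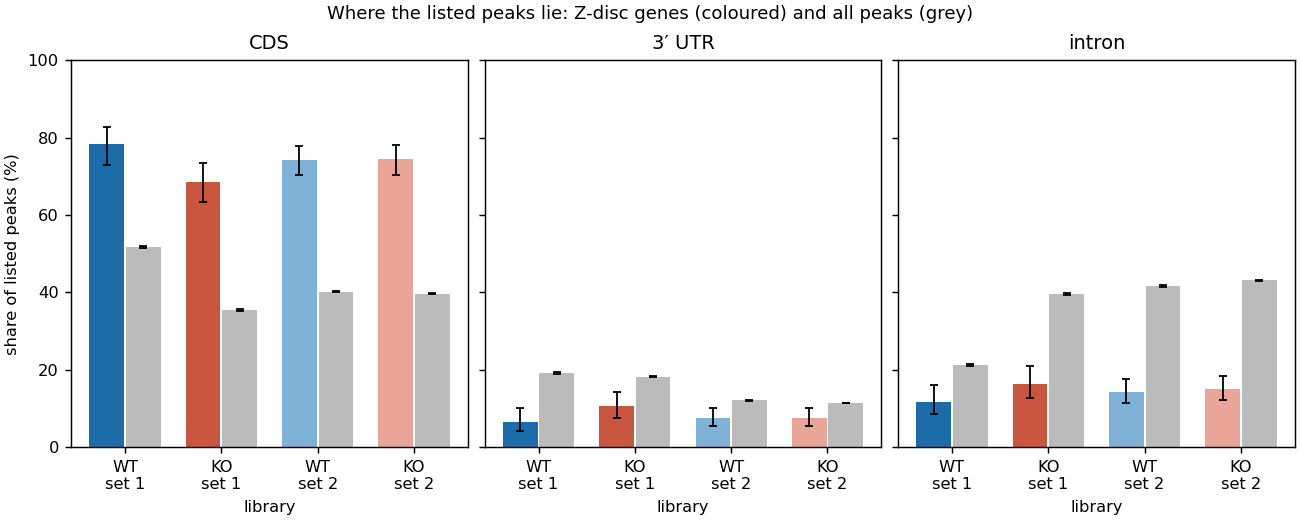
Share of listed peaks in percent (y axis) in the CDS, 3′ UTR and introns in the 4 libraries (x axis), with coloured bars for the Z-disc genes, grey bars for all listed peaks and error bars for 95% Wilson intervals. In each library the Z-disc genes have a CDS share of 68.6% or more, above that of all peaks.

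By region, the members' 3′ UTR peaks were the lowest over input. Their median log2 fold was 0.19 in WT set 1, −0.53 in mir-486 KO set 1, −0.92 in WT set 2 and −0.88 in mir-486 KO set 2. Over all listed 3′ UTR peaks the medians were 0.87, 0.61, 0.60 and 0.56. In set 2 only 2 of 38 member 3′ UTR peaks were above input in WT and 2 of 38 in mir-486 KO. Intronic member peaks had medians of 0.94, 0.65, 0.56 and 0.52, and CDS member peaks had 1.17, −0.36, −0.15 and −0.13. Thus in the 3 libraries other than WT set 1 the intronic peaks of these genes lay above their CDS peaks. The same held over all listed peaks, so this was not particular to the members. Intronic and CDS medians over all peaks were 0.38 and 0.12 in mir-486 KO set 1, and 0.80 and 0.21 in WT set 2. They were 0.77 and 0.18 in mir-486 KO set 2, and 0.46 and 0.68 in WT set 1.

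Positions recurred between the sets more often than for peaks in general. Of the WT member peaks of set 1, 91.9% (95% Wilson interval 88.0 to 94.6) overlapped a listed WT peak of set 2, against 69.5% of all peaks. Of the mir-486 KO member peaks of set 1, 87.0% (82.8 to 90.2) did, against 54.1%. In the other direction the shares were 71.4% (67.3 to 75.1) in WT and 76.2% (72.3 to 79.7) in mir-486 KO, against 29.3% and 28.3%. Among enriched peaks the numbers were small. Of the 18 WT peaks of set 1, 5 overlapped an enriched WT peak of set 2, all 7 WT peaks of set 2 overlapped one of set 1, and for mir-486 KO none of 4 and none of 6 did. Over all enriched peaks the shares were 34.4% and 37.9% in WT and 69.3% and 25.3% in mir-486 KO. Members cover long stretches of exon, between 23.2% (Pdlim3) and 95.8% (Actn3) in WT set 1 for the genes with at least 10 peaks, and this bears on how often positions overlap.

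The order of the log2 folds at overlapping peaks is given as a description across peaks, which share genes and libraries and are not replicates. Between WT and mir-486 KO, Spearman's rho of the log2 folds over input was 0.54 over 240 overlapping member peaks in set 1 and 0.87 over 459 in set 2. Between the sets it was 0.63 over 249 peaks in WT and 0.70 over 280 in mir-486 KO. The levels themselves differed where WT set 1 was involved, with a median of 1.14 in WT against −0.32 in mir-486 KO over the 240 peaks of set 1.

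The direct lists set the immunoprecipitates of both genotypes against each other, with WT as the numerator for peaks called in WT and mir-486 KO as the numerator for those called in mir-486 KO, without the inputs. In these bulk libraries more AGO2 on an RNA, more of that RNA and more muscle fibre RNA cannot be told apart. In set 1 the members' peaks were higher in WT. The median log2 fold was 0.70 at the 271 WT peaks and −0.47 at the 322 KO peaks. In set 2 it was 0.04 at 510 WT peaks and −0.01 at 504 KO peaks. Over the 2 sets this gives a mean of 0.37 ± 0.47 (SD, n = 2) for WT over KO and −0.24 ± 0.32 (SD, n = 2) for KO over WT, so that neither mean exceeds its SD. The list medians over all peaks were positive in both directions, 0.74 and 0.72 in set 1 and 0.30 and 0.27 in set 2. In each list the peaks are those called in the library that is the numerator.

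Set against CDS peaks in general, the set 1 shift at WT peaks was not above the background. The members' CDS peaks had a median of 0.73 in WT over KO, and all CDS peaks had 0.82. At the KO peaks the members' CDS peaks had −0.70 and all CDS peaks −0.16. In set 2 the members' CDS medians were −0.00 and −0.02, and those of all CDS peaks 0.05 and 0.04. The 8 fast-fibre markers had like values. Their median of gene medians was 0.80 in WT over KO and −0.78 in KO over WT in set 1, and −0.04 and 0.04 in set 2. For the 4 globin genes it was 1.66 and −1.43 in set 1, the latter over the 3 of them with a listed peak, and 1.51 and −1.52 in set 2. The part of the fibre and blood RNA in the members' values was not tested.

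With the thresholds used over input, the direct lists held 2 member peaks in WT over KO of set 1, where 0.469% of all peaks passed, and 1 in KO over WT of set 1, where 0.179% passed. In set 2 they held 0 in either direction, where 0.0192% and 0.0144% of all peaks passed. The 3 peaks were intronic and 1 library decided each. Actn2 intron 1 (chr13:12336164-12336315), the site with the miR-206-3p word, had 4.86 in WT over KO of set 1, and −0.61 in WT over KO of set 2. Myot intron 6 (chr18:44345258-44345346) had 4.94 in set 1 and no listed peak in any other library. Over its own input in WT set 1 the Myot peak had 1.20 with a −log10 p of 1.85, so it was not enriched there. Pdlim3 intron 4 (chr8:45912868-45912990) had 3.71 in KO over WT of set 1 and no listed peak in the other 3 libraries.

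A log2 fold of at least 1 with the same −log10 p was a threshold added after the values were seen. In WT over KO of set 1 it was passed by 66 member peaks, or 24.4%, where 4.85% of all peaks did, and in KO over WT by 6, or 1.86%, where 0.755% did. In set 2 it was 3, or 0.588%, against 0.403%, and 1, or 0.198%, against 0.144%. With no demand on the p-value the order turned, since 32.5% of member peaks in WT over KO of set 1 reached a log2 fold of 1 and 42.7% of all peaks did. The same shares were 14.6% against 44.4% in KO over WT of set 1, and 2.94% against 22.6% and 0.794% against 22.1% in set 2. Of the 66, Actn3 gave 30 of its 60 peaks. Its median was 1.0 in WT over KO and −1.02 in KO over WT of set 1, and all 60 and all 54 of its peaks had that direction. In set 2 the medians of Actn3 were −0.01 and 0.00, and 35 of 78 WT peaks were above 0. At its exon 7 site the median was 1.58 in WT over KO of set 1 and 0.13 in set 2. The 6 peaks higher in mir-486 KO of set 1 were 2 in the 3′ UTR of Pdlim3, 1 in its intron 4, 2 in the UTRs of Ldb3 and 1 in the 3′ UTR of Des, and none was a CDS peak.

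Direction was kept in both sets by 3 members. Actn2, Ldb3 and Pdlim3 had positive medians in both WT over KO lists and negative medians in both KO over WT lists, as did 10.6% of the 2558 genes with at least 10 listed peaks in each direct list, among which 8 were members. For Ldb3 the medians were 0.70 and 0.27 in WT over KO of set 1 and set 2, and −0.11 and −0.15 in KO over WT. For Actn2 they were 0.62 and 0.14, and −0.09 and −0.02. For Pdlim3 they were 0.35 and 0.12, and −0.01 and −0.13. All of the set 2 values were small, and no member had the opposite pattern. Among genes with at least 10 listed peaks, these medians lay below the typical gene in both directions. In WT over KO of set 1 and set 2 the percentiles were 34.4 and 38.7 for Actn2, and 40.9 and 48.1 for Ldb3. For Pdlim3 they were 16.9 and 26.3. In KO over WT the percentiles of these genes ran from 12.1 (Ldb3, set 2) to 26.8 (Actn2, set 2).

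Tcap turned between the sets. Its median was 1.28 in WT over KO and −0.62 in KO over WT of set 1, where all 5 WT peaks were above 0, and −0.54 and 0.56 in set 2, where all 5 WT peaks were below 0. Csrp3 had 1.43 in KO over WT of set 1 over 7 peaks and 0.90 in WT over KO of set 2 over 11, each with a −log10 p below 2 throughout. The medians of Flnc, Des and Actn3 in set 2 were within 0.03 of 0 in both directions.

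**Figure D5:**
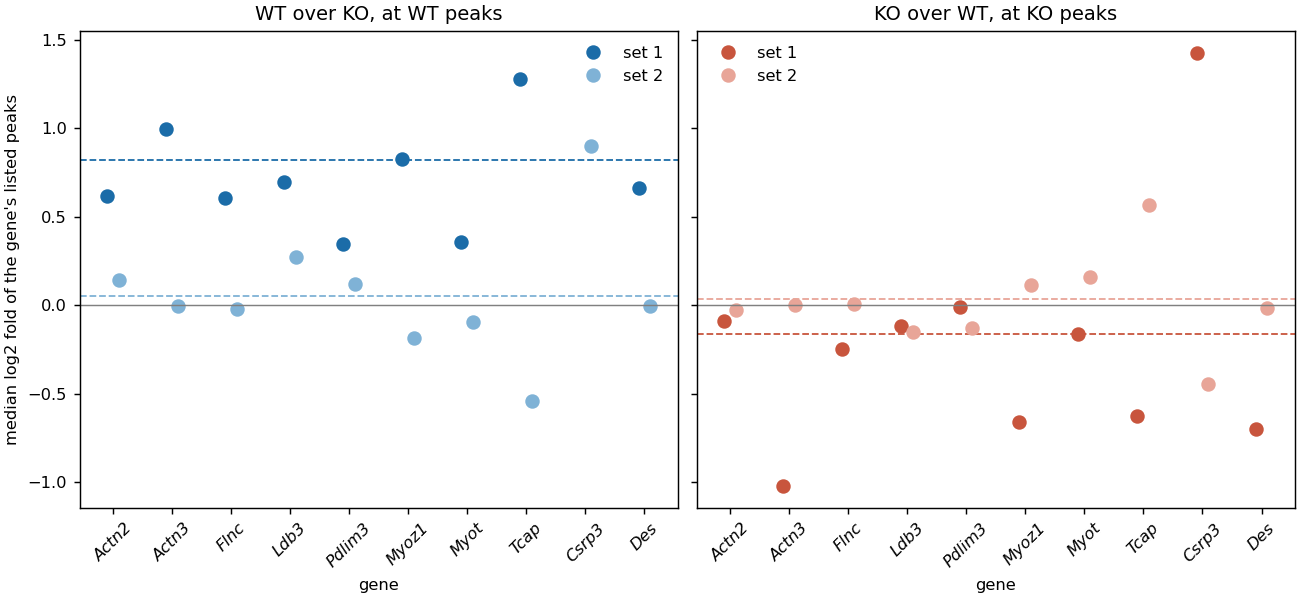
Median log2 fold of each gene's listed peaks (y axis) in the direct lists, WT over KO on the left and KO over WT on the right, for the 10 Z-disc genes (x axis). Dark points are set 1, light points set 2, and dashed lines the median of all CDS peaks of that list. The set 1 points lie on the side of WT for all members but Csrp3, and most set 2 points lie near 0.

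Where listed peaks of both sets overlapped, the direct folds of the sets were not ordered alike. Spearman's rho across 249 overlapping member peaks was −0.20 for WT over KO, and across 280 it was −0.27 for KO over WT. The sets share no library.

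Of a list of 19 other Z-disc genes, all had listed peaks in each library. The median of their gene medians over input was 0.72 in WT set 1, 0.07 in mir-486 KO set 1, 0.25 in WT set 2 and 0.34 in mir-486 KO set 2. At least 1 enriched peak was found in 7 of the 19 genes in WT set 1, 1 in mir-486 KO set 1, 2 in WT set 2 and 3 in mir-486 KO set 2. In the same order 3.57%, 0.848%, 1.42% and 1.23% of all listed peaks were enriched. The share of all genes with such a peak was not computed, so these counts are not set against other genes. Synm, which encodes the desmin partner synemin, was the only one of the 19 enriched in all 4 libraries, with 2, 1, 3 and 2 enriched peaks. In WT set 1 the highest median was 3.01 in Cryab, the small heat shock protein that binds desmin, and the lowest −0.70 in Nebl. In the direct lists 18 of the 19 had a positive median in WT over KO of set 1 and 12 in set 2, where 95.1% and 81.0% of all genes with at least 10 listed peaks did. Only Mypn, which encodes myopalladin, had a peak past the thresholds there, 1 in KO over WT of set 1.

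The members share little sequence with other genes. Of the exact 30-nt words of their exons, 1.79% of Actn2 and 1.44% of Actn3 occurred in transcripts of another gene, mostly in each other, and at most 0.390% of any other member did. Reads from these few stretches could be placed in either alpha-actinin.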

How the data were processed

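AGO2 chimeric eCLIP libraries of mouse muscle were used as 8 peak lists, 4 of library over input and 4 of the genotypes set against each other. Per the labels and the study's methods, adapters were cut with cutadapt, STAR was the aligner, CLIPper the peak caller, and peaks were normalised to a size-matched input. Each list belongs to 1 library. For each peak the authors deposited a log2 fold of scaled reads between 2 libraries. Beside it the authors deposited the −log10 of a p-value, which is 0 wherever the fold is negative and at most 400. All values printed for peaks are these. Coordinates are GRCm38, 1-based, and lay within the chromosomes of the reference, which also gave the sequences (microRNAs from RefSeq). Gene models were those of GENCODE M21, whereas the labels name a later release.

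The members and lists were chosen with earlier results of these data known. All 10 members are named, with each peak past the thresholds of a direct list and each recurrent site. In each member and library the highest peak past the thresholds was picked, otherwise the peak of highest −log10 p. Not all of these picked peaks are printed. Other settings, named where used, were chosen after seeing the data. A peak's region was that of its midpoint, with CDS taking precedence, then UTRs, noncoding exons and introns. Words were sought in peaks extended by 25 nt. The functions were tested on simulated data. Python 3.11.15, pandas 2.3.3, scipy 1.17.1 and pysam 0.24.0 were used.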

Additional observations from a re-analysis of the deposited data

How the results depend on the processing

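No fit with a replicate block was made, since no result comes from a test. The genotypes are paired within each set in the direct lists, described by set and by their mean over the sets. Thresholds moved the counts of enriched peaks most. In the order WT set 1, mir-486 KO set 1, WT set 2 and mir-486 KO set 2, the counts of 18, 4, 7 and 6 became 105, 24, 57 and 64 at a log2 fold of at least 1, and 5, 0, 0 and 0 at 4. A −log10 p of at least 5 left 2 in mir-486 KO set 1. Asking that most of a peak lie in an exon left 0 there. Merging adjoining peaks left 0 in WT set 2 and 1 in mir-486 KO set 2. Each set alone gave 7 to 18 for WT and 4 to 6 for mir-486 KO. Sites numbered 7 to 15 with 1 library left out, 7 without the WT library of set 1. In the direct lists, the counts of 2, 1, 0 and 0 (at WT and KO peaks of set 1, then of set 2) became 66, 6, 3 and 1 at a log2 fold of at least 1.

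Each set alone gave 0.04 to 0.70 for the median of WT over KO and −0.47 to −0.01 for KO over WT. Centred on the median of its list, the mean over the sets turned to −0.15 for WT over KO and moved to −0.74 for KO over WT, so the members lay below the typical peak in both directions. Among enriched peaks only, KO over WT turned to 0.43. The sets differed in sign here, with 0.95 in set 1, where the 4 enriched peaks were all intronic, and −0.08 in set 2. The causes were not tested.

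The CDS share of 76.3% in WT and 71.5% in mir-486 KO became 87.6% and 84.9% when most of a peak had to lie in an exon, 69.9% and 63.5% with merged peaks, and 64.1% and 61.2% read at the 5′ end. The 3′ UTR share in WT, 7.05%, became 8.10% with the exon rule and 6.47% at the 5′ end. Each set alone gave CDS shares of 74.3% to 78.2% in WT and 68.6% to 74.4% in mir-486 KO, and 3′ UTR shares of 6.64% to 7.45% and 7.54% to 10.6%.

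For recurrence both sets are needed, so neither could be left out. With an overlap of 50% of both peaks the listed shares were 64.9% (WT set 1 in set 2), 34.5% (WT set 2 in set 1), 58.1% (mir-486 KO set 1 in set 2) and 37.1% (mir-486 KO set 2 in set 1). With the exon rule they were 97.9%, 78.5%, 96.3% and 84.3%. Merged, the last 3 were 65.9%, 81.2% and 71.2%. Among enriched peaks the 50% rule gave 11.1% for WT set 1 and 28.6% for WT set 2, merging gave 0% for WT set 1, and a log2 fold of at least 1 gave 79.2% for mir-486 KO set 1 and 48.4% for mir-486 KO set 2. No value could be had for WT set 2 merged or for mir-486 KO set 1 under the exon rule, where no enriched peak was left.

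With 6-nt words, the mean number of member peaks with any of the 5 words went from 19.5 to 51.5 in WT and from 19.5 to 54.5 in mir-486 KO, and with the miR-206-3p word from 8.5 to 20 and from 8 to 17. Unextended peaks with any word numbered 11.5 and 9.5. Of the remaining alternatives, 77 stayed within the spread or within 1.5 times the value. For medians and region shares, a set taken alone always lies within the SD of the sets. Those alternatives could not move and say nothing about stability.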
